A study of Homo sapiens with 12 samples.

Results

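The 38 genes described here are direct transcriptional targets of p53, named from general knowledge of the pathway and matched by gene symbol to the probes of a whole-genome bead array. Of these, 36 had a named probe and 35 were tested among 11785 genes. The cells were HCT116, a human colon carcinoma line, in 4 groups of 3 arrays each that the study describes as biological replicates. WT cells carried no hairpin and received no treatment. WT+ATMi cells were the same line kept for 3 days in 10 µM of an ATM kinase inhibitor that was renewed daily. Wip1SH cells expressed a short hairpin RNA against Wip1, and Wip1SH+ATMi cells carried that hairpin and received the same inhibitor course. No control hairpin and no vehicle treatment are named in the labels. An effect of Wip1 depletion and an effect of carrying a hairpin therefore cannot be told apart. The inhibitor's compound name is not given.

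The transcription factor p53 is kept at low levels by the ubiquitin ligase MDM2 and is stabilised and activated when the kinase ATM and its partner kinases sense DNA breaks. Wip1, the phosphatase encoded by PPM1D, removes the phosphates that ATM and related kinases place on p53 and on other damage-response proteins, and PPM1D is itself a p53 target, which closes a negative feedback loop. Active p53 binds a pair of half-sites in or near its target genes and raises genes for death receptors, apoptosis, DNA repair, cell cycle arrest, metabolism and secreted stress signals. HCT116 cells are widely used to study these targets.

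A search of promoter windows shows how much of this binding pattern lies next to the transcript starts. RefSeq windows of GRCh38.p14, reaching from 250 bases before to 50 bases after the start, were found for 29 of the 38 genes. They were scanned for the p53 half-site, a palindromic motif of 10 bases, and for pairs of half-sites parted by at most 13 bases. An exact half-site lay in 4 of the 29 windows (13.8%), against 6.63% of 35114 promoters of all genes. A pair with at most 3 mismatches lay in 6 of the 29 windows (20.7%), against 12.8% of all promoters. The 5 of these whose transcripts were tested are shown. Each of them passed the threshold in at least 1 comparison below, as did most tested members (30 of 35 in the group differences). The share of all genes passing in at least 1 comparison was not computed, so nothing is drawn from these counts. Passing was not a condition for being shown. Capitals mark the half-sites, flanks stop at the transcript start, and each line reads 5′ to 3′ on the gene's strand.
AEN: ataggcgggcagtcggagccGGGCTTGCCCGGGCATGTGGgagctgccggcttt
PLK2: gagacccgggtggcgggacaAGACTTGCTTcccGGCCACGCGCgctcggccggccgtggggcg
GDF15: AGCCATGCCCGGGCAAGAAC
ZMAT3: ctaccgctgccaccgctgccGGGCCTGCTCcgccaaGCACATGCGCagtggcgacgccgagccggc
RPS27L: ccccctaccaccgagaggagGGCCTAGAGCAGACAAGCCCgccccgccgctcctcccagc

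The AEN stretch lies at chr15:88621286-88621339 on the plus strand, and its pair has 2 mismatches, no spacer and a centre 24 bases before the start. The PLK2 stretch (chr5:58460176-58460238, minus strand) holds 1 exact half-site and a second one after a spacer of 3 bases, the ZMAT3 stretch (chr3:179071847-179071912, minus strand) has a spacer of 6 bases, and the RPS27L stretch (chr15:63157507-63157566, minus strand) has none; each has 3 mismatches, and the RPS27L pair also contains 1 exact half-site. The GDF15 pair (chr19:18386186-18386205, plus strand) is centred 38 bases after the start and has 3 mismatches. These matches describe letters in short windows, and p53 sites of other members can lie in introns or farther upstream, which the windows do not cover.

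PPM1D, the hairpin's target, had log2 intensities of 10.28, 10.43 and 10.31 in WT and 8.74, 8.43 and 8.87 in Wip1SH, and with the inhibitor 10.62, 10.62 and 10.68 in WT and 8.86, 8.83 and 8.69 in Wip1SH cells. The hairpin groups lay below both others on every array, a fold change of 3.17 without and 3.60 with the inhibitor. Of 10 colon epithelial markers, 6 were detected on all 12 arrays (EPCAM, CDH1, KRT8, KRT18, KRT19 and CDX2), whereas CDX1, VIL1, CDH17 and CEACAM5 were detected on none. The summed log2 level of this list was lower with the inhibitor, without overlap, at 15.87 to 15.94 in WT, 15.69 to 15.71 in WT+ATMi, 15.81 to 15.90 in Wip1SH and 15.39 to 15.50 in Wip1SH+ATMi, and its part in the results was not tested. The defining leukocyte markers PTPRC and CD3E were detected on no array, but CD68 was detected on all 12, and the summed level of the leukocyte list was 9.62 to 9.89 in WT, 9.90 to 10.15 in WT+ATMi, 10.61 to 10.68 in Wip1SH and 10.24 to 10.44 in Wip1SH+ATMi; its part in the results was not tested. COL1A1 was detected on 12 arrays and the other 5 fibroblast markers on 0 to 3, and none of 3 endothelial markers was detected. The number of detected probes also differed between groups, rising from 17650 to 17929 for the WT arrays through 18568 to 18961 with the hairpin alone and 18723 to 19654 with the inhibitor alone to 19505 to 20408 with both. With that number in the model, 64 of the 81 calls for the p53 targets in all 6 comparisons were lost, while the median standard errors of the group differences were 1.27 to 2.77 times larger.

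In what follows, a gene is called higher or lower when its adjusted p in limma's moderated test, with Benjamini-Hochberg adjustment over the 11785 genes, is under 0.05. Values are normalized log2 intensities of 1 probe a gene on 3 arrays a group, differences are log2 fold changes with their standard error, and levels of different probes are not set against each other. In RNA from whole cultures, fewer cells of a kind and less RNA per cell cannot be told apart. Of the 3 genes not tested, BTG2 and FDXR had no named probe and SPATA18 was detected on 2 arrays, 1 short of the 3 required, with log2 intensities between 4.58 and 5.83. TNFRSF10C, detected on 5 arrays, was the tested member closest to that limit.

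Without the inhibitor, Wip1SH cells had a higher signal of many of the p53 targets than WT cells. Of the 35 tested, 14 were higher in Wip1SH than in WT, against 16.8% of all genes, and 1 was lower, against 15.4%. The median difference was 0.33 over the members and 0.01 over all genes, and 31 of the 35 differences were positive. TNFRSF10C reached the test only through its Wip1SH arrays. Without it 13 of 34 were higher, against 17.3% of the genes not kept through 1 group alone. With the array medians set equal over all probes, 28 of the 35 were higher, as were 3826 of the 11785 genes. The increases were moderate, since none of the called differences reached a 2-fold change. Wip1SH had the highest mean of the 4 groups for 22 of the 35 members. The share of all genes with that pattern was not computed, so nothing is drawn from this count.

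**Figure D1:**
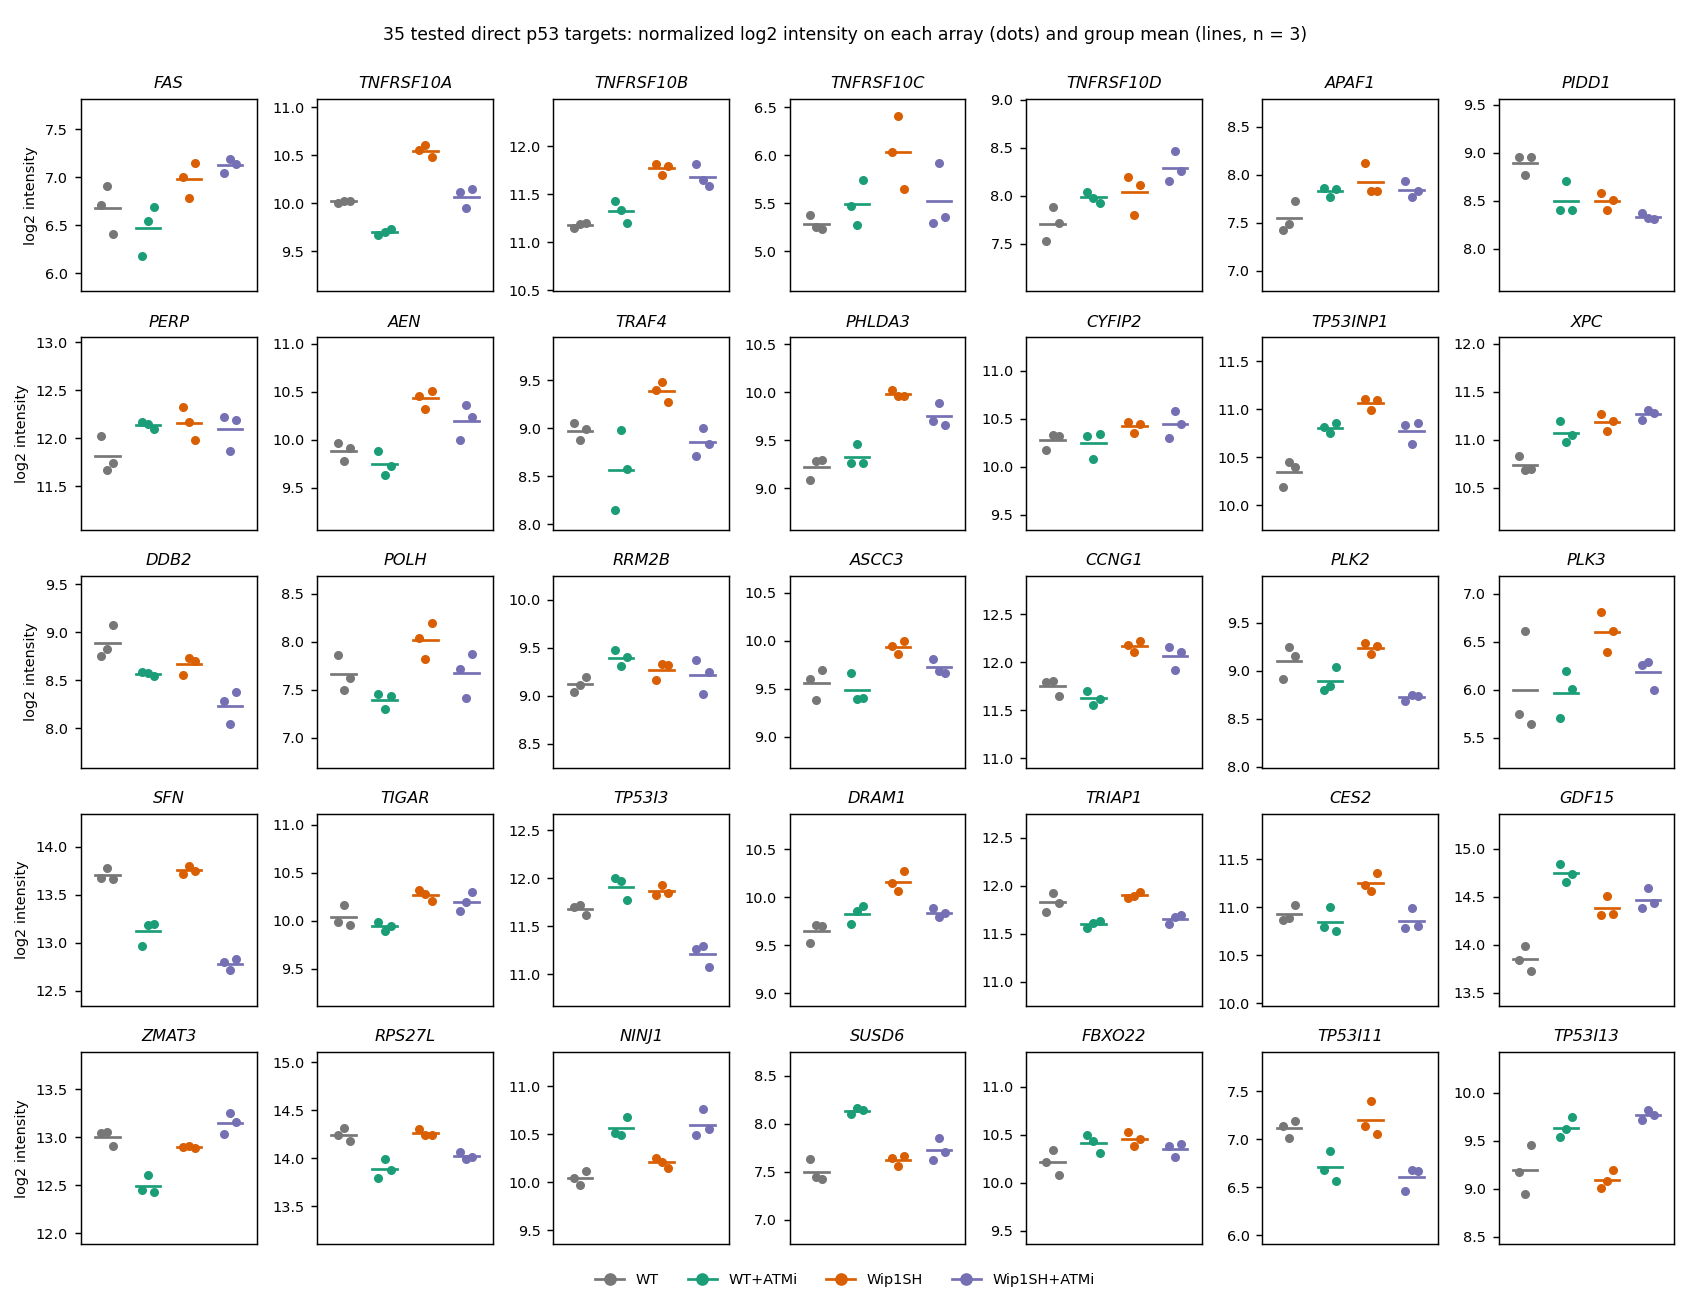
Normalized log2 intensity (vertical axes, each spanning the same 2 log2 units around the probe's mean) of the 35 tested p53 targets on every array; dots are arrays, lines are means of 3 arrays and colours are the groups. PHLDA3 and TP53INP1 stand higher in Wip1SH than in WT on every array, and SFN is lower on every inhibitor-treated array than on any untreated one.

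Of the 5 death and decoy receptors, 3 were called higher on depletion (all genes: 16.8%), and FAS and TNFRSF10D did not pass the threshold there. TNFRSF10C is among the 3, but it reached the test only through its Wip1SH arrays, and nothing is drawn from its call. TNFRSF10A and TNFRSF10B encode the receptors through which the ligand TRAIL starts apoptosis. TNFRSF10A read 10.00, 10.03 and 10.02 in WT and 10.55, 10.60 and 10.48 in Wip1SH, and with the inhibitor 9.67, 9.70 and 9.73 in WT and 10.12, 9.94 and 10.14 in Wip1SH cells. The Wip1SH arrays were above and the WT+ATMi arrays below all WT arrays, without overlap. Depletion raised it by 0.53 ± 0.07 (adjusted p = 0.000407), and by 0.37 ± 0.07 with the inhibitor present (adjusted p = 0.00464). The inhibitor lowered it in both backgrounds, by -0.32 ± 0.07 in WT (adjusted p = 0.00929) and by -0.48 ± 0.07 in Wip1SH (adjusted p = 0.00123). Cells with both interventions did not differ detectably from WT (0.05 ± 0.07, adjusted p = 0.616).

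TNFRSF10B read 11.14, 11.19 and 11.20 in WT and 11.82, 11.70 and 11.79 in Wip1SH, and with the inhibitor 11.43, 11.34 and 11.20 in WT and 11.81, 11.65 and 11.59 in Wip1SH cells. Both hairpin groups lay above both groups without it on every array. The rise on depletion was 0.59 ± 0.09 (adjusted p = 0.000465) without and 0.36 ± 0.09 (adjusted p = 0.0111) with the inhibitor. Its other 2 detected probes rose by 0.55 and 0.69 on depletion, but gave -0.36 and 0.33 for the inhibitor in WT, where the tested probe gave 0.15 and was not called, and -0.51 and 0.03 in Wip1SH, where it gave -0.09.

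The decoy receptors TNFRSF10C and TNFRSF10D bind TRAIL without passing on the death signal. TNFRSF10C was detected on 0 WT arrays and 3 Wip1SH arrays, and on 1 array of each inhibitor group, so that it reached the test only through the group in which it was high, and nothing is drawn from its call on depletion. Its mean in Wip1SH was at least 1.30-fold the detection limit in WT. TNFRSF10D passed the threshold only when both interventions were set against WT (0.58 ± 0.12, adjusted p = 0.00294). FAS, the receptor of FAS ligand, lay between 6.41 and 6.90 in WT and between 6.78 and 7.15 in Wip1SH, groups that overlapped (0.30 ± 0.15, adjusted p = 0.15). With the inhibitor, FAS was 6.18, 6.54 and 6.69 without the hairpin and 7.05, 7.19 and 7.13 with it, and this difference of 0.65 ± 0.15 was called (adjusted p = 0.0107). The interaction, which tests whether the effect of depletion differs with the inhibitor, was not called for any of the 5 receptors.

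Among the 8 genes of apoptosis and survival signalling, 5 were higher (all genes: 16.8%) and 1 was lower (all genes: 15.4%) on depletion. PHLDA3, a pleckstrin-homology protein that restrains the survival kinase AKT, read 9.09, 9.29 and 9.30 in WT and 10.02, 9.97 and 9.96 in Wip1SH, and with the inhibitor 9.26, 9.46 and 9.26 in WT and 9.70, 9.89 and 9.66 in Wip1SH cells. Its arrays with the hairpin lay above all arrays without it. The rise of 0.76 ± 0.09, a 1.69-fold change, was the greatest of the 35 members in Wip1SH against WT (adjusted p = 0.000148). It was 0.42 ± 0.09 with the inhibitor (adjusted p = 0.00701).

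AEN, an exonuclease that promotes apoptosis and whose promoter pair is printed above, read 9.97, 9.78 and 9.91 in WT and 10.46, 10.32 and 10.51 in Wip1SH, with no overlap. It was higher on depletion in both backgrounds, by 0.54 ± 0.11 (adjusted p = 0.00304) and 0.45 ± 0.11 (adjusted p = 0.0109). APAF1, the scaffold of the apoptosome, rose by 0.38 ± 0.10 on depletion (adjusted p = 0.0161); its other probe gave 0.03 there, 0.56 for depletion under the inhibitor where the tested probe gave 0.02, and an opposite sign for both inhibitor effects and the interaction. PERP, a membrane protein of desmosomes and an apoptosis effector, was called at the edge of the threshold (0.35 ± 0.12, adjusted p = 0.0499), and 13 of the alternative settings lost that call.

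PIDD1 moved the other way. It encodes the scaffold of a caspase-activating complex and read 8.95, 8.77 and 8.96 in WT and 8.58, 8.41 and 8.51 in Wip1SH, and with the inhibitor 8.40, 8.70 and 8.40 in WT and 8.37, 8.32 and 8.31 in Wip1SH cells. All treated arrays were below the WT arrays. It fell by 0.39 on the log2 scale under depletion (adjusted p = 0.00968) and by 0.39 under the inhibitor (adjusted p = 0.0125), and was the only member lower in Wip1SH against WT. TRAF4, an adaptor of the TRAF family, fell with the inhibitor in Wip1SH cells (-0.53 ± 0.17, adjusted p = 0.0372), and its second probe, detected on 7 arrays, gave 0.82 for the inhibitor in WT where the tested probe gave -0.41 without a call, 0.61 against -0.12 for both interventions, and -0.93 against -0.13 for the interaction. CYFIP2, a subunit of the actin-regulating WAVE complex, was called in no comparison; its second probe gave 0.47 for the inhibitor in WT against -0.03 for the tested one, -0.08 against 0.02 in Wip1SH, -0.24 against 0.20 for depletion under the inhibitor, and -0.55 against 0.05 for the interaction.

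Of the 5 DNA repair and nucleotide genes, 2 rose on depletion (all genes: 16.8%), XPC and ASCC3. XPC, which recognises helix-distorting lesions in nucleotide excision repair, read 10.83, 10.68 and 10.70 in WT and 11.27, 11.09 and 11.19 in Wip1SH, and with the inhibitor 11.20, 10.97 and 11.05 in WT and 11.20, 11.31 and 11.28 in Wip1SH cells. Its 3 other groups lay above WT on every array. The rise was 0.45 ± 0.08 under depletion (adjusted p = 0.00234), 0.34 ± 0.08 under the inhibitor (adjusted p = 0.0129) and 0.53 ± 0.08 under both (adjusted p = 0.000502).

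DDB2, the other damage sensor of this pathway for ultraviolet lesions, behaved differently from XPC. It read 8.75, 8.83 and 9.07 in WT and 8.56, 8.74 and 8.70 in Wip1SH, and with the inhibitor 8.59, 8.58 and 8.54 in WT and 8.28, 8.05 and 8.38 in Wip1SH cells. The group with both interventions was lowest on every array, at -0.65 ± 0.11 against WT (adjusted p = 0.000558). The inhibitor lowered it in WT (-0.31 ± 0.11, adjusted p = 0.0467) and in Wip1SH (-0.43 ± 0.11, adjusted p = 0.0131), and depletion lowered it under the inhibitor (-0.33 ± 0.11, adjusted p = 0.0418).

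ASCC3, a helicase that opens DNA for alkylation repair, rose by 0.37 ± 0.10 on depletion (adjusted p = 0.0171), where its 2 other probes gave 0.22 and 0.54. For the inhibitor in WT these probes gave -0.64 and -0.27, against -0.08 for the tested one, and in Wip1SH 1 of them gave -0.71 against -0.21. For both interventions they gave -0.07 and -0.18 against 0.16, and 1 of them gave 0.35 against -0.14 for the interaction. POLH, a translesion polymerase, and RRM2B, a subunit of the p53-inducible ribonucleotide reductase, were called in no comparison. POLH stood at 0.36 ± 0.14 on depletion with a second probe at -0.09, and RRM2B at 0.15 ± 0.10 with a second probe at -0.05. The second probes also had the opposite sign for both interventions (POLH -0.09 against 0.01, RRM2B -0.20 against 0.10) and, for POLH, for the interaction (0.24 against -0.08).

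Of the 4 cell cycle genes, 1 was higher on depletion (all genes: 16.8%), and the inhibitor lowered 1 in WT (all genes: 10%) and 2 in Wip1SH cells (all genes: 9.02%). CCNG1, which encodes cyclin G1, read 11.79, 11.80 and 11.65 in WT and 12.18, 12.11 and 12.22 in Wip1SH, and with the inhibitor 11.70, 11.56 and 11.61 in WT and 12.16, 11.92 and 12.11 in Wip1SH cells. The hairpin arrays did not overlap with those lacking it. The rise on depletion was 0.42 ± 0.08 without the inhibitor (adjusted p = 0.00326) and 0.44 ± 0.08 with it (adjusted p = 0.00346), and the interaction was 0.02 ± 0.12 with a 95% interval from -0.24 to 0.28.

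SFN is the 14-3-3 sigma protein that holds mitotic cyclin complexes in the cytoplasm. It showed the greatest of the members' group differences, with the inhibitor in Wip1SH cells. It read 13.67, 13.78 and 13.67 in WT and 13.72, 13.80 and 13.75 in Wip1SH, and with the inhibitor 12.97, 13.19 and 13.19 in WT and 12.79, 12.72 and 12.83 in Wip1SH cells. The 2 untreated groups overlapped and both treated groups lay below them. The inhibitor lowered it by -0.59 ± 0.08 in WT (adjusted p = 0.000534) and by -0.98 ± 0.08 in Wip1SH, a 1.97-fold fall (adjusted p = 3.87e-05). Depletion was not called without the inhibitor (0.05 ± 0.08, adjusted p = 0.671) but lowered SFN under it, by -0.34 ± 0.08 (adjusted p = 0.0111). The interaction of -0.39 ± 0.11 did not pass the threshold (adjusted p = 0.0908).

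PLK2, a polo-like kinase, fell with the inhibitor in Wip1SH cells, where it went from 9.29, 9.17 and 9.26 to 8.68, 8.74 and 8.74 (-0.52 ± 0.10, adjusted p = 0.0034). In WT cells the inhibitor difference was -0.21 ± 0.10 and not called (adjusted p = 0.134). Its paralogue PLK3 was called in no comparison and varied widely between WT arrays, at 5.74, 6.61 and 5.64.

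Of the 5 genes of metabolism, mitochondria and autophagy, 4 were called lower with the inhibitor in Wip1SH cells (all genes: 9.02%). TP53I3, a quinone oxidoreductase linked to oxidative stress, read 11.70, 11.72 and 11.61 in WT and 11.83, 11.92 and 11.85 in Wip1SH, and with the inhibitor between 11.77 and 12.0005 in WT and 11.26, 11.29 and 11.08 in Wip1SH cells. The doubly treated arrays lay below all others, and the WT arrays lay below those of Wip1SH and of WT+ATMi. The doubly treated arrays were lower by -0.65 ± 0.09 than Wip1SH (adjusted p = 0.000497) and by -0.70 ± 0.09 than WT+ATMi (adjusted p = 0.000267). Neither intervention alone was called against WT (0.19 ± 0.09 and 0.23 ± 0.09).

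DRAM1, a lysosomal membrane protein that promotes autophagy, read 9.52, 9.71 and 9.70 in WT and 10.14, 10.06 and 10.27 in Wip1SH, and with the inhibitor 9.72, 9.85 and 9.90 in WT and 9.89, 9.79 and 9.83 in Wip1SH cells. The Wip1SH arrays were above all others. It rose by 0.51 ± 0.09 on depletion (adjusted p = 0.00122) and fell by 0.32 on the log2 scale when the inhibitor was added to Wip1SH cells (adjusted p = 0.0192). CES2, a carboxylesterase, was also higher in the first of these comparisons (0.33 ± 0.10, adjusted p = 0.0228) and lower in the second (-0.39 ± 0.10, adjusted p = 0.013), but was not called for the interaction (adjusted p = 0.24).

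TRIAP1, a small mitochondrial protein that serves lipid transfer and cell survival, was lower with the inhibitor in both backgrounds, by -0.22 ± 0.07 (adjusted p = 0.0436) and -0.24 ± 0.07 (adjusted p = 0.0311). TIGAR, a phosphatase that slows glycolysis, was called only for depletion under the inhibitor (0.26 ± 0.08, adjusted p = 0.0449). The difference without the inhibitor was close in size, 0.23 ± 0.08, and missed the threshold (adjusted p = 0.0515).

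**Figure D2:**
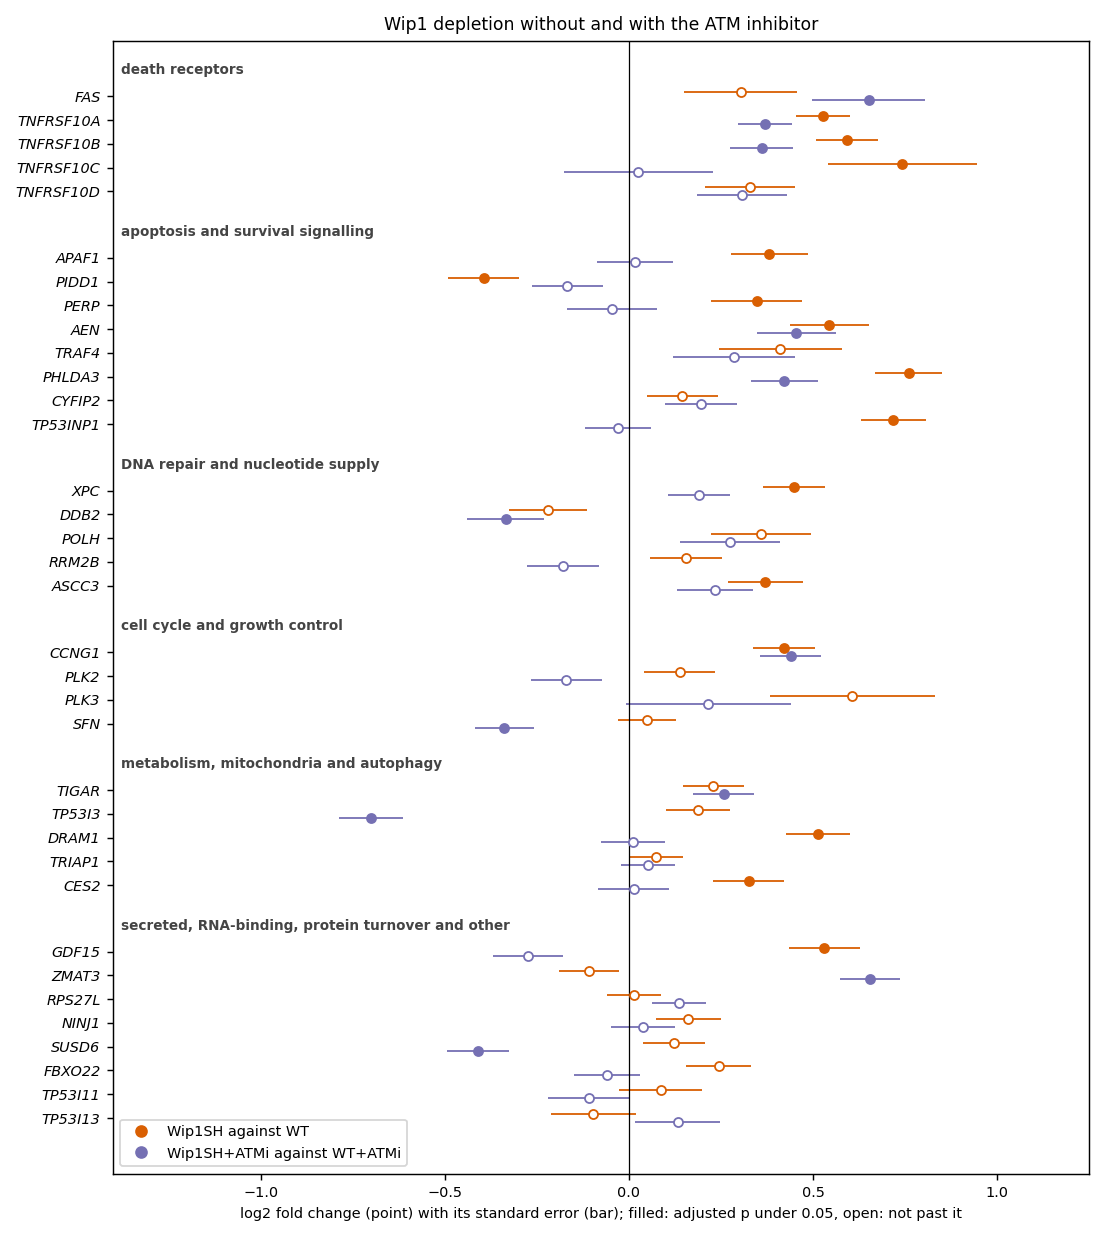
Log2 fold change (horizontal axis) of each tested p53 target for Wip1 depletion without (orange) and with (violet) the ATM inhibitor, grouped by role; bars are standard errors and filled points have an adjusted p under 0.05. Orange points lie mostly right of 0 (31 of 35), while with the inhibitor 23 of 35 do and TP53I3 and SUSD6 lie to the left.

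The last group holds a secreted factor and proteins of varied function, and in WT cells the inhibitor raised 4 of its 8 members (all genes: 15.4%) and lowered 3 (all genes: 10%). GDF15, a secreted stress cytokine of the TGF-beta family, read 13.84, 13.98 and 13.72 in WT and 14.31, 14.51 and 14.32 in Wip1SH, and with the inhibitor 14.84, 14.65 and 14.73 in WT and 14.38, 14.59 and 14.44 in Wip1SH cells. WT was below the other 3 groups on every array. The rise was 0.89 ± 0.10 under the inhibitor (adjusted p = 0.000147), 0.53 ± 0.10 under depletion (adjusted p = 0.00189) and 0.62 ± 0.10 under both (adjusted p = 0.000421).

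SUSD6, a membrane protein with a sushi domain, read 7.63, 7.45 and 7.42 in WT and 7.65, 7.56 and 7.66 in Wip1SH, and with the inhibitor 8.10, 8.16 and 8.14 in WT and 7.62, 7.85 and 7.70 in Wip1SH cells. It was high in WT+ATMi alone, by 0.63 ± 0.08 against WT (adjusted p = 0.000457). NINJ1, which drives plasma membrane rupture in dying cells, rose with the inhibitor in WT (0.52 ± 0.09, adjusted p = 0.00178) and in Wip1SH (0.40 ± 0.09, adjusted p = 0.00821). TP53I13, a p53-inducible membrane protein, did so too (0.44 ± 0.12, adjusted p = 0.0161, and 0.67 ± 0.12, adjusted p = 0.00223).

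RPS27L, a paralogue of a ribosomal protein, read 14.25, 14.31 and 14.18 in WT and 14.30, 14.24 and 14.24 in Wip1SH, and with the inhibitor 13.80, 13.99 and 13.88 in WT and 14.07, 14.00 and 14.01 in Wip1SH cells. Treated arrays were below untreated ones, by -0.35 ± 0.07 in WT (adjusted p = 0.00524) and -0.23 ± 0.07 in Wip1SH (adjusted p = 0.039). TP53I11 was lower with the inhibitor on the tested probe in WT (-0.40 ± 0.11, adjusted p = 0.0214) and in Wip1SH (-0.60 ± 0.11, adjusted p = 0.00338). Its second probe, dimmer and detected on 7 arrays, gave 0.68 in WT, -0.36 in Wip1SH, 0.23 against -0.51 for both interventions, and -1.03 against -0.19 for the interaction. FBXO22, the substrate receptor of a ubiquitin ligase, was called nowhere, and its second probe gave 0.53 for depletion under the inhibitor against -0.06, -0.21 against 0.20 for the inhibitor in WT, and 0.10 against -0.30 for the interaction.

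Counted over all roles, the inhibitor in WT cells raised 6 of the 35 tested members (all genes: 15.4%) and lowered 8 (all genes: 10%), with a median difference of -0.03 over the members and 0.03 over all genes. In Wip1SH cells the same inhibitor raised 3 members (all genes: 14.3%) and lowered 12 (all genes: 9.02%), with a median of -0.21 against 0.02. The 6 genes lower in both backgrounds were TNFRSF10A, DDB2, SFN, TRIAP1, RPS27L and TP53I11, and the 2 higher in both were NINJ1 and TP53I13. TNFRSF10A, TP53INP1, DRAM1 and CES2 were higher on depletion and lower when the inhibitor was added to the depleted cells. The shares of all genes with these joint patterns were not computed, so nothing is drawn from the number of members in them. Setting the array medians equal over all probes moved the median of all genes to 0.43 in WT and 0.15 in Wip1SH. The counts over the 35 members then changed to 19 higher and 0 lower in WT and to 3 lower in Wip1SH. At that setting 7041 of the 11785 genes were higher and 165 lower in WT, and 285 were lower in Wip1SH. Relative to the median of all genes the members' median was then -0.04 and -0.16, against -0.07 and -0.23.

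**Figure D3:**
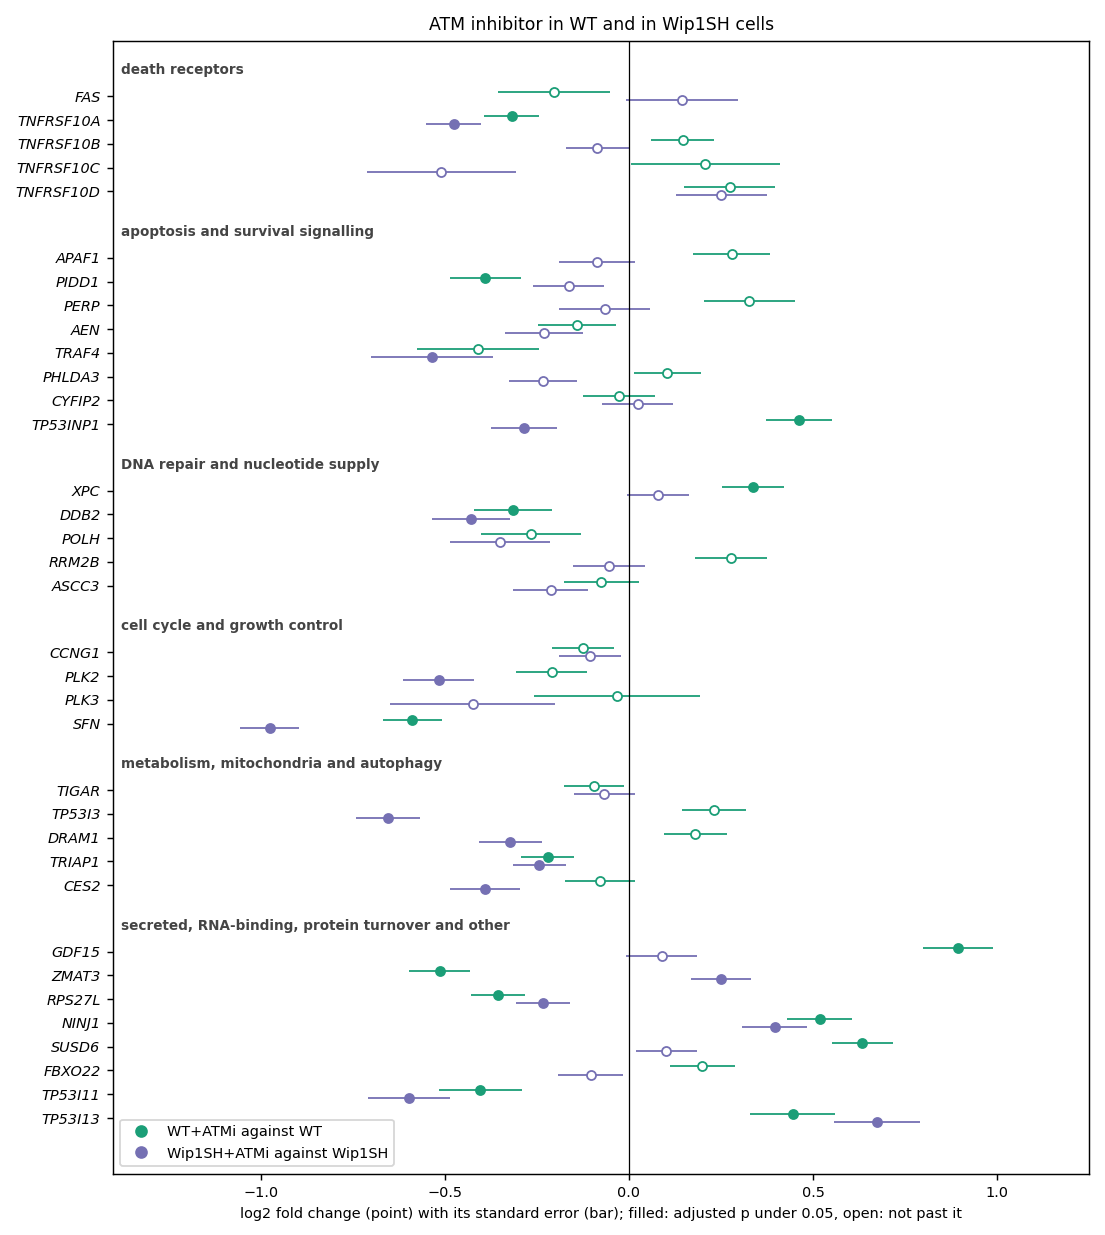
Log2 fold change (horizontal axis) of each tested p53 target for the ATM inhibitor in WT (green) and in Wip1SH cells (violet), grouped by role; bars are standard errors and filled points have an adjusted p under 0.05. SFN lies farthest left in both, and 26 of 35 violet points lie left of 0 against 19 green ones.

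With the inhibitor present, depletion raised 8 members (all genes: 10.5%) and lowered 4 (all genes: 10.7%), with a median of 0.05 against 0.01. TNFRSF10A, TNFRSF10B, AEN, PHLDA3 and CCNG1 were higher on depletion in both backgrounds. The 9 members called higher without but not with the inhibitor were TNFRSF10C, APAF1, PERP, TP53INP1, XPC, ASCC3, DRAM1, CES2 and GDF15. Of these the interaction was called for TP53INP1, DRAM1 and GDF15. Nothing is drawn from the call of TNFRSF10C, which was kept only through its Wip1SH arrays. The shares of all genes called in these joint patterns were not computed, so nothing is drawn from the number of members in them. Both interventions together raised 12 members against WT (all genes: 23.5%) and lowered 7 (all genes: 17.1%), with a median of 0.17 against 0.04. These comparisons share groups, so their counts are not independent of each other.

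Several calls rested on single arrays. Leaving out Wip1SH replicate 2 ended the call of TNFRSF10C in Wip1SH against WT (adjusted p = 0.0612), leaving out WT+ATMi replicate 1 that of XPC in WT+ATMi against WT (0.0559), leaving out Wip1SH replicate 3 that of CES2 in Wip1SH+ATMi against Wip1SH (0.0511), and leaving out WT+ATMi replicate 3 that of TNFRSF10B in Wip1SH+ATMi against WT+ATMi (0.0504). Without 2 to 9 of the arrays, each left out in turn, the calls of APAF1, PERP, ASCC3 and CES2 were lost for depletion. For the inhibitor in WT cells the same was true of PIDD1, DDB2, TRIAP1, TP53I11 and TP53I13 (2 to 10 arrays), and in Wip1SH cells of TRAF4, TP53INP1, DRAM1, TRIAP1, ZMAT3 and RPS27L (2 to 9 arrays). DDB2 and TIGAR for depletion under the inhibitor (8 and 9 arrays) and FAS, APAF1, AEN and RPS27L for both interventions (4 to 6 arrays) complete the list. The count of members lower in WT+ATMi against WT fell from 8 to 4 without WT+ATMi replicate 1 or 3 and to 5 without WT replicate 3. That in Wip1SH+ATMi against Wip1SH fell from 12 to 7 without Wip1SH replicate 3. All genes called, in either direction, fell too. In WT+ATMi against WT they went from 3002 to 2070 without WT+ATMi replicate 3. In Wip1SH+ATMi against Wip1SH they went from 2750 to 1881 without Wip1SH replicate 2.

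The interaction was called lower for 5 members (all genes: 1.21%) and higher for 1 (all genes: 1.9%). TP53INP1, a stress protein that assists p53 and takes part in autophagy, read 10.19, 10.45 and 10.39 in WT and 11.10, 10.99 and 11.09 in Wip1SH, and with the inhibitor 10.81, 10.75 and 10.85 in WT and 10.83, 10.64 and 10.85 in Wip1SH cells. Each intervention alone raised it, by 0.72 ± 0.09 (adjusted p = 0.000191) and 0.46 ± 0.09 (adjusted p = 0.00363), and the combination did not differ detectably from the inhibitor alone (-0.03 ± 0.09, adjusted p = 0.857). Its interaction was -0.75 ± 0.13 (adjusted p = 0.0111), and -0.71 on its second probe.

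The interaction was -0.89 ± 0.12 for TP53I3 (adjusted p = 0.00698; -0.88 on its second probe) and -0.80 ± 0.14 for GDF15 (adjusted p = 0.0111). DRAM1 at -0.50 ± 0.12 (adjusted p = 0.0483) and SUSD6 at -0.53 ± 0.12 (adjusted p = 0.0333) were nearer the threshold. DRAM1 lost its call when any 1 of the 12 arrays was left out and SUSD6 when any 1 of 9 was, so that without these arrays 3 or 4 members were called lower. The shapes differed among these 5 genes. In TP53INP1 and GDF15 each intervention alone raised the signal and the combination was not called against the inhibitor alone (GDF15: -0.27 ± 0.10, adjusted p = 0.0623), in TP53I3 only the combination was called, in DRAM1 the inhibitor lowered a signal that depletion had raised, and in SUSD6 the inhibitor's rise in WT was not called in Wip1SH (0.10 ± 0.08, adjusted p = 0.426).

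**Figure D4:**
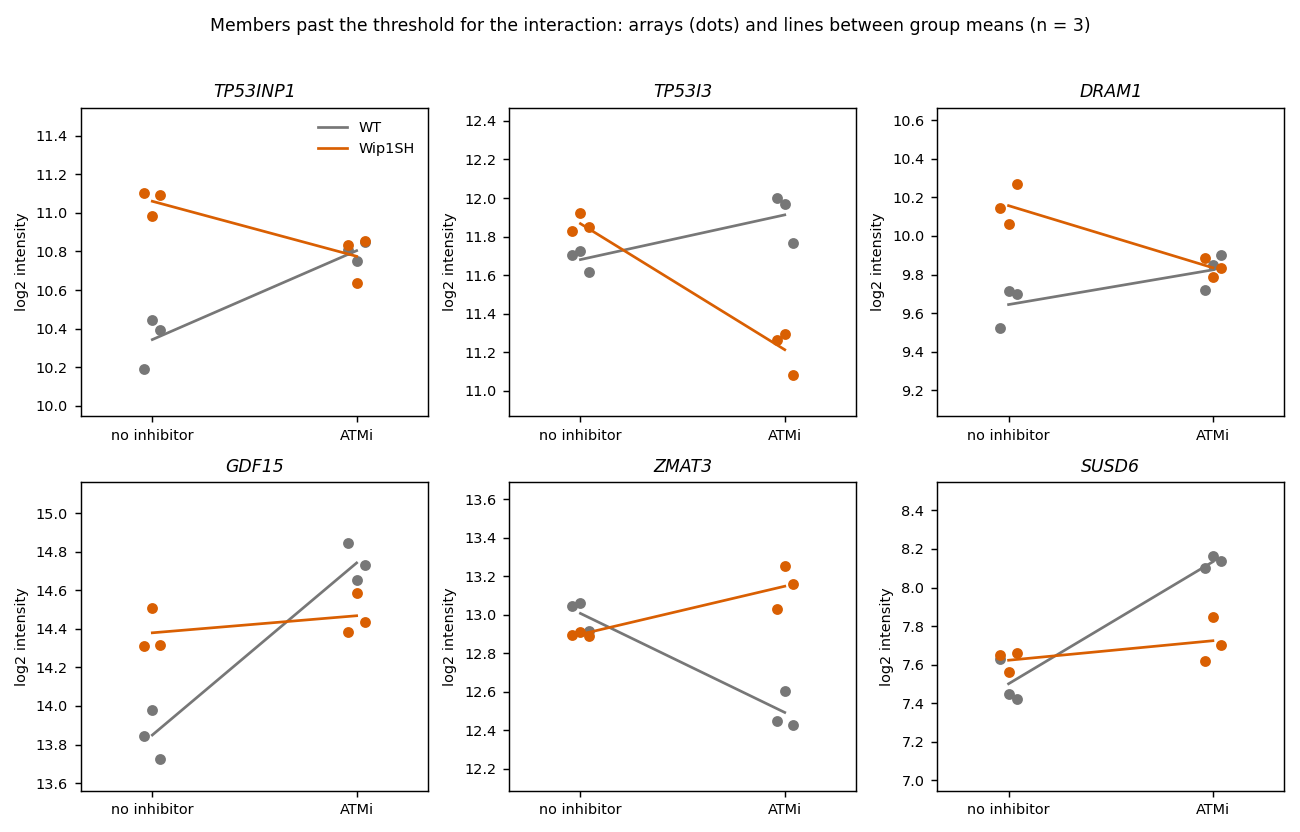
Log2 intensity (vertical axis) of the 6 members called for the interaction, without and with the ATM inhibitor (horizontal axis), in WT (grey) and Wip1SH cells (orange); dots are arrays and lines join means of 3 arrays. The lines cross or converge in all 6 panels, and ZMAT3 is the only one in which the orange line rises and the grey line falls.

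ZMAT3, an RNA-binding zinc-finger protein that regulates splicing and whose promoter stretch is printed above, was the 1 member with a positive interaction, and its probes disagreed. The tested probe read 13.04, 13.06 and 12.91 in WT and 12.90, 12.91 and 12.89 in Wip1SH, and with the inhibitor 12.45, 12.60 and 12.43 in WT and 13.03, 13.25 and 13.16 in Wip1SH cells, an interaction of 0.76 ± 0.12 (adjusted p = 0.00828). A second probe read 10.88, 10.94 and 10.92 in WT and 11.29, 11.33 and 11.41 in Wip1SH, and with the inhibitor 10.95, 10.73 and 10.87 in WT and 10.76, 10.33 and 10.67 in Wip1SH cells. The remaining probe read 10.00, 10.06 and 9.90 in WT and 10.53, 10.61 and 10.64 in Wip1SH, and with the inhibitor 10.57, 10.54 and 10.42 in WT and 10.45, 10.36 and 10.49 in Wip1SH cells. Both of these probes had their highest mean in Wip1SH, and their interactions were -0.69 and -0.68. On depletion they rose by 0.43 and 0.61, where the tested probe gave -0.11, and they fell by 0.76 and 0.16 with the inhibitor in Wip1SH cells, where it gave 0.25 (adjusted p = 0.0465). The direction of ZMAT3 therefore depends on the probe, and no direction is drawn for the gene.

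**Figure D5:**
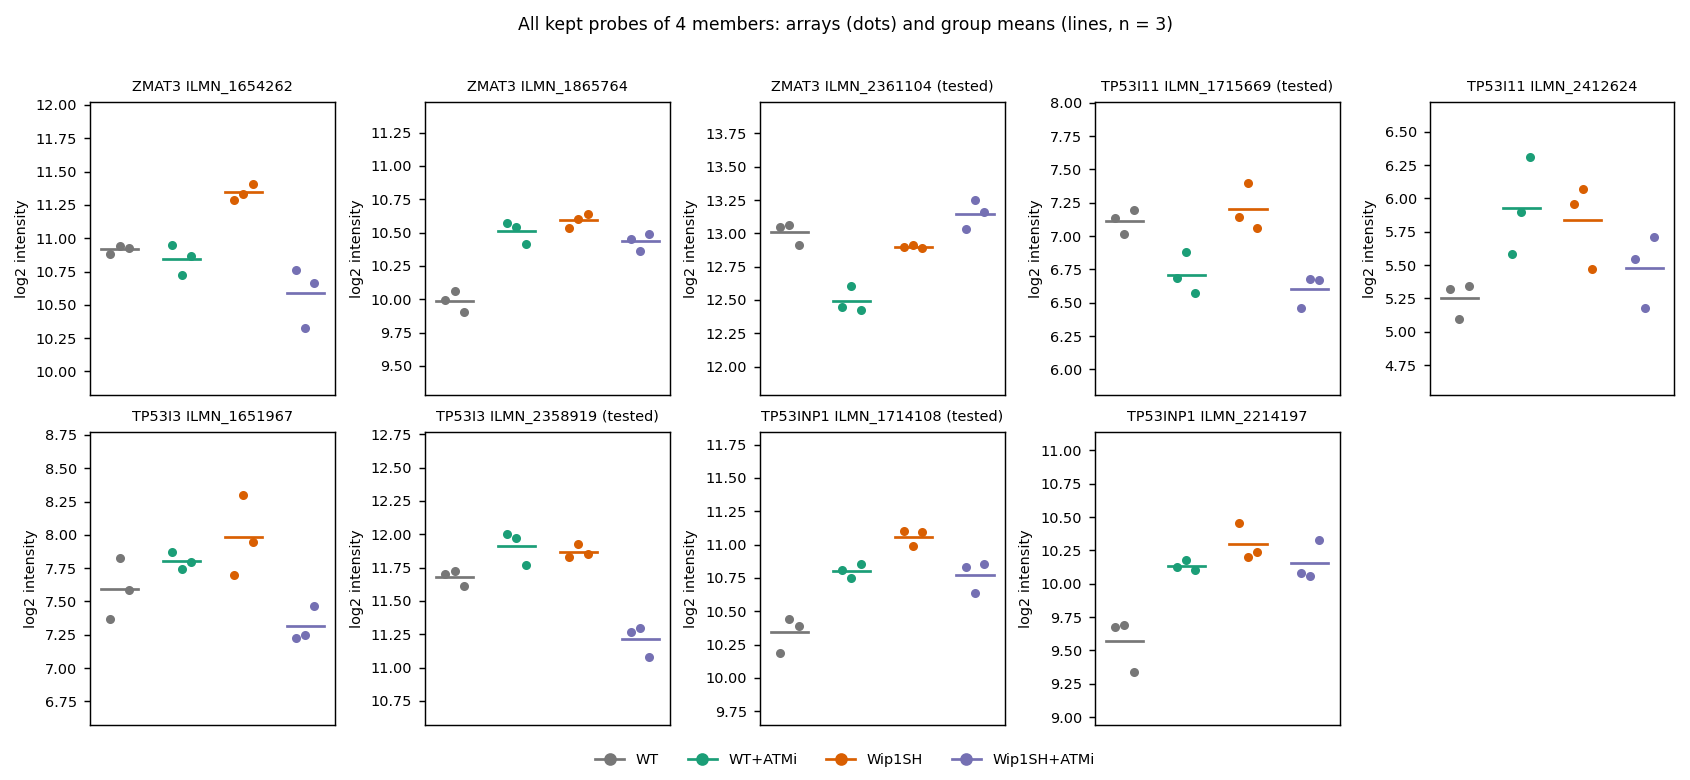
Log2 intensity (vertical axes, each spanning the same range around the probe's mean) of every kept probe of ZMAT3, TP53I11, TP53I3 and TP53INP1 on each array; dots are arrays and lines are means of 3 arrays. The probes of TP53I3 and of TP53INP1 follow the same pattern over the groups, whereas those of ZMAT3 and TP53I11 do not.

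Over the members with several kept probes (14 genes), the other probes had the same sign as the tested one for all 6 such members called in Wip1SH against WT. For the inhibitor in WT this held for 1 of 3, the exceptions being TP53I11 and ZMAT3. In Wip1SH cells it held for 5 of 6, with ZMAT3 as the exception, and for depletion under the inhibitor for 3 of 4, again with ZMAT3 as the exception.

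Further p53 targets outside the 38 were read in the same way. Of 40 genes listed, 34 were tested, and 18 were higher (all genes: 16.8%) and 3 lower (all genes: 15.4%) in Wip1SH against WT, with a median of 0.27. Of these 34, TNFRSF19, CDIP1 and ORAI3 reached the test only through 1 group. Without them 17 of 31 were higher, against 17.3% of the genes not kept through 1 group alone. The lowest adjusted p-values among the higher genes belonged to GADD45A, a damage-inducible regulator of growth arrest (1.37, adjusted p = 8.78e-07), TRIM22, an antiviral ubiquitin ligase, and ZNF79, a zinc-finger protein (1.01, adjusted p = 0.000104). TRIM22 was detected on no array without the hairpin and on all arrays with it, so that it reached the test only through the hairpin groups. Its mean in Wip1SH was at least 1.31-fold the detection limit in WT. TRIM22 is still counted among the 17, and nothing is drawn from its call on depletion. The 3 lower ones were PPM1D, the hairpin's target, KITLG, a growth factor (-0.51), and LIF, a cytokine (-0.65). In WT cells the inhibitor raised 6 (all genes: 15.4%) and lowered 6 (all genes: 10%) of these genes, the lower ones including SERTAD1, a cell cycle regulator (-0.49, adjusted p = 0.0026). Among the higher ones was REV3L, the catalytic subunit of a translesion polymerase, which was detected on 0 WT arrays and on every other array. Its mean in WT+ATMi was at least 1.42-fold the detection limit in WT (adjusted p = 0.00106 for the measured means). In Wip1SH cells the inhibitor raised 1 (all genes: 14.3%) and lowered 10 (all genes: 9.02%), including TMEM63B, a membrane channel protein (-0.54, adjusted p = 0.00299), and PMAIP1, the apoptosis activator NOXA (-0.58, adjusted p = 0.0048).

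Depletion under the inhibitor raised 9 (all genes: 10.5%) and lowered 5 (all genes: 10.7%) of the further targets, and both interventions together raised 12 (all genes: 23.5%) and lowered 8 (all genes: 17.1%). Their interaction was called lower for 2 (all genes: 1.21%), GADD45A (-0.64, adjusted p = 0.0114) and REV3L, and higher for 0 (all genes: 1.9%). No size is given for REV3L, since its probe was not above background in WT. The probes of CDKN1A, the cell cycle inhibitor p21, disagreed. On depletion the tested probe differed by 0.05 ± 0.08 and was not called (adjusted p = 0.672), whereas the other, also detected on all 12 arrays, rose by 0.58 ± 0.10 (adjusted p = 0.00132 in a fit over all kept probes). With the inhibitor in Wip1SH cells that second probe fell by 0.62 (adjusted p = 0.00138) and the tested one gave -0.03. The tested probe was called higher with the inhibitor in WT (0.26 ± 0.08, adjusted p = 0.0311). It was called lower for depletion under the inhibitor (-0.24 ± 0.08, adjusted p = 0.0477). MDM2, the ligase of p53, differed by -0.11 ± 0.16 on depletion (adjusted p = 0.614) and fell by 0.50 on the log2 scale with the inhibitor in WT (adjusted p = 0.0361).

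A list of regulators of the pathway had 12 tested genes. On depletion 1 was higher (all genes: 16.8%), the acetyltransferase EP300 (0.57, adjusted p = 0.0231), and 2 were lower (all genes: 15.4%), PPM1D and the checkpoint kinase CHEK1 (-0.49, adjusted p = 0.00371). EP300 was detected on only 1 WT array, and its WT and Wip1SH arrays overlapped. Its differences against WT, also that with the inhibitor, are therefore limited by background. With the inhibitor in WT cells EP300, CHEK1 and PRKDC were higher (3 of 12, all genes: 15.4%) and MDM2 was lower (1 of 12, all genes: 10%), and in Wip1SH cells CHEK1 and PRKDC were higher (2 of 12, all genes: 14.3%). None of the 12 was called for the interaction.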

How the data were processed

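Total RNA had been labelled as biotinylated cRNA and hybridised to 1-colour Illumina bead arrays, 12 in all. The authors deposited a probe signal as linear intensity without normalization and a detection p-value beside it, per the file headers. The authors also deposited normalized log2 values, which were analysed. The sources used here do not name their normalization, but neqc of limma 3.58.1 (R 4.3.3, offset 16), applied to the signals, gave the same values to within 5e-06.

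The platform annotation gives 1 gene symbol to 30113 of the 47323 probes. Probes with a detection p under 0.05 on 3 or more arrays were kept (15772 probes), and the kept probe with the highest mean stood for its gene, leaving 11785 genes. limma's lmFit and eBayes estimated 1 mean for each group from the 12 arrays together. The 5 group differences and the interaction had two-sided tests, adjusted by Benjamini and Hochberg's method across all genes. The number of arrays limits the precision: the median standard error was 0.11 for a group difference and 0.15 for the interaction. The labels call the arrays biological replicates. The procedure was tested on simulated data. Replicate numbers did not pair the arrays: 3 of 18 correlations of same-numbered arrays' deviations were over 0.1, so no replicate block was used.

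A fold against a group with no detected array was printed as a lower bound, taking for that group the higher of the lowest detected signal on each array and the probe's own signal. Promoter windows came from RefSeq (GRCh38.p14) by symbol; the build behind the probes is not stated. All 38 members were accounted for. Other probes were named where they pointed the other way or differed by over 0.5 from the tested probe, and up to 3 further targets per comparison and direction by adjusted p. Members, lists and tests were chosen with earlier results of these data known. Alternatives were other background corrections, scalings, detection filters and probe rules, a covariate, a replicate block, fits to the compared groups alone and leaving out each array.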

Additional observations from a re-analysis of the deposited data

Results flagged for a closer look

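For 6 of the 35 tested p53 targets, the tested probe was called in the test of the interaction itself (limma, adjusted over all genes). Of all genes, 1.21% were called lower and 1.9% higher. The interaction on the log2 scale was -0.75 for TP53INP1, -0.89 for TP53I3, -0.50 for DRAM1, -0.80 for GDF15, -0.53 for SUSD6 and 0.76 for ZMAT3. TP53INP1, TP53I3 and GDF15 kept the call under all 22 alternatives that could be run for the interaction. DRAM1 lost it under 16 of them and SUSD6 under 11. ZMAT3 lost it under 2, and its other 2 probes gave -0.69 and -0.68.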

How the results depend on the processing

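Of 81 calls for the p53 targets, 12 were kept under every alternative and 36 under every alternative but the covariate. Setting array medians equal over all probes shifted the median of all genes to 0.24, 0.43, 0.15, -0.01, 0.40 and -0.28 (Wip1SH against WT, WT+ATMi against WT, Wip1SH+ATMi against Wip1SH, Wip1SH+ATMi against WT+ATMi, Wip1SH+ATMi against WT, interaction) and lost 31 calls; in that order members were 28 higher and 0 lower, 19 and 0, 3 lower, 3 higher, 23 and 1, and 0 higher, all genes called were 7206 in the second and 1289 in the fourth comparison, and higher genes made up 91.8%, 97.7%, 88%, 39.3%, 94.3% and 4.12% of calls, against 52.1%, 60.6%, 61.3%, 49.4%, 57.9% and 61%. Directions turned there for WT+ATMi against WT in TNFRSF10A (0.16), PIDD1 (0.10), CYFIP2 (0.44), DDB2 (0.17), ASCC3 (0.41), TIGAR (0.37), TRIAP1 (0.196), CES2 (0.39), RPS27L (0.055) and TP53I11 (0.014), and for Wip1SH+ATMi against WT in PLK2 (0.086), CES2 (0.38) and RPS27L (0.18). With equal medians over the tested probes 6 calls were lost, and higher genes made up 43.1% of calls in WT+ATMi against WT, 47.2% in Wip1SH+ATMi against WT and 74% in the interaction. With the mean of a gene's detected probes, ZMAT3 turned to 0.31 in Wip1SH against WT, -0.22 in Wip1SH+ATMi against Wip1SH and -0.20 in the interaction, where 0 members were then higher, and TP53I11 to 0.14 in WT+ATMi against WT. With detected-probe number as a model term, in the order above, all genes called were 886, 33, 159, 1183, 40 and 231, and members were 5 higher and 0 lower, 0 and 0, 0 and 1, 5 and 2, 0 and 0, and 3 lower in the interaction; AEN turned to -0.074 in Wip1SH+ATMi against WT. That number differs between the groups, so the model shares their differences between the terms. Without background correction 572 genes were called for the interaction, against 367. Replicate numbers did not pair the arrays (correlations of deviations from -0.08 to 0.14, and 7 of 12 arrays closest to their own number); the replicate block lost 5 of 81 calls and left 3 members lower in the interaction. Leaving out 1 array in turn gave 4 to 8 members lower in WT+ATMi against WT and 7 to 12 in Wip1SH+ATMi against Wip1SH. All genes called there were then 2070 to 3076 and 1881 to 2771, against 3002 and 2750. In the interaction 3 to 4 members were lower and 161 to 319 genes were called. Leaving out an array ended 27 of 81 calls at least once. Calls of dim probes, such as TNFRSF10C, are limited by signal over background. The cause of these changes was not tested.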
